A study of Mus musculus with 9 samples.

Results

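Integrins and laminins are gene families of cell adhesion, and 36 of their genes were measured here, 26 integrin chains and 10 laminin chains, out of 19938 genes with a probe set of their own. The members were chosen by name, as integrin alpha and beta chains and laminin alpha, beta and gamma chains, with 1 probe set per gene, the one with the highest mean over all 9 arrays. Other chains of both families are not analysed here. The values are log2 levels from Affymetrix Mouse Gene 1.0 ST arrays. They can be compared between arrays for 1 gene, but not between genes, because each probe set has its own response.

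One group is skin-derived precursors (SKPs), a primary-passage culture from back skin that forms spheres of cells (4 arrays, replicates 3, 4, 5 and 6). The other group is the population sorted straight from dissociated back skin of Sox2:EGFP mice as EGFP-positive and CD34-negative, and put into RNAlater (5 arrays, replicates 2, 16, 17, 18 and 20). Both came from mice at postnatal day 4, and each array holds an independent preparation, per the design text. The labels give no strain, sex or number of mice per preparation for either group, and no genotype for the mice behind the SKPs. Sox2 is a transcription factor known in skin from the dermal papilla, the mesenchyme that sits inside the hair bulb, and from other cell types. Culture, sorting and the cells chosen all differ between the groups and cannot be told apart. Likewise, in RNA of many cells, fewer cells of a type and less RNA per cell cannot be told apart.

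Integrins are receptors of 1 alpha and 1 beta chain that span the cell membrane, bind extracellular matrix or other cells, and link them to the cytoskeleton. The alpha chain largely sets the ligand: some bind laminins, some collagens, some the RGD motif of fibronectin and vitronectin, and some, on leukocytes, other cells. Laminins are secreted heterotrimers of an alpha, a beta and a gamma chain that assemble into basement membranes, the sheets under epithelia and around vessels, nerves, muscle fibres and the dermal papilla.

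Most laminin chains were lower in SKPs, and the integrin chains moved in both directions. Of the 10 laminin chains 6 were lower and 1 was higher, and of the 26 integrin chains 6 were lower and 7 higher, at an adjusted p under 0.05 (limma over all 19938 genes, Benjamini-Hochberg). Over all genes 16.9% were lower and 20.2% higher by the same test, 37.0% in either direction. In all 10 laminin chains the 4 SKP values lay on one side of the 5 sorted values, 9 below and 1 above, and in 12 of 26 integrin chains the groups did not overlap either. Over all genes this held for 34.0%, 15.5% with SKPs below and 18.5% with SKPs above. The nearest values of the groups were only 0.008 apart for Lamb1 and 0.025 apart for Lamb3, and neither chain passed the test. Array medians differed by more than these gaps, from 7.15 to 7.30. The median log2 fold change was -1.07 over the laminin chains and 0.07 over the integrin chains, beside 0.07 over all genes. At least 2-fold differences among the calls were found in 5 laminin chains, all lower, and in 9 integrin chains, 5 lower and 4 higher, where 6.25% of all genes were lower and 5.46% higher by that limit. Of the members, 30 of 36 had a mean above 6.31, the level under which the lowest 33.3% of all genes lay, and 6 integrin chains (Itgae, Itgal, Itgam, Itgax, Itgb6 and Itgb7) did not.

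The sorted arrays were not uniform. On average over marker lists, replicates 2 and 20 had lower levels of dermal papilla markers and higher levels of keratinocyte and fibroblast markers than the other 3. Single genes departed from this. Sox2 and Tbx18, of the papilla list, were higher on both arrays, and Pdgfra, of the fibroblast list, was lower on both. Among the sorted arrays, the keratinocyte genes Perp and Dsp and the fibroblast gene Dpp4 were lowest on replicate 2. The mean level of 15 dermal papilla genes was 7.33 to 7.52 for SKPs, and for the sorted cells 10.52 (replicate 2), 10.05 (replicate 20) and 11.40 to 11.56 (the other 3). For 15 keratinocyte genes it was 6.55 to 6.86 for SKPs, and for the sorted cells 10.03 (replicate 2), 11.54 (replicate 20) and 9.28 to 9.45 (the other 3). For 11 dermal fibroblast genes it was 11.77 to 11.79 for SKPs, and for the sorted cells 11.16 (replicate 2), 11.26 (replicate 20) and 10.07 to 10.10 (the other 3). Of the papilla genes 13 were lower in SKPs and 1, Crabp1, higher. Of the fibroblast genes 7 were higher and 1, Dpp4, lower. Counts for all marker lists stand beside 16.9% of all genes lower and 20.2% higher. Sox2 is on the papilla list and Cd34 on the fibroblast list. Of the genes used in the sort, Sox2 averaged 6.16 ± 0.27 in SKPs (SD, n = 4) and 8.69 ± 0.41 in the sorted cells (SD, n = 5). On sorted replicates 2 and 20 Sox2 was at 9.25 and 8.97, above the 8.24 to 8.61 of the other 3. Cd34 averaged 11.43 ± 0.23 in SKPs (SD, n = 4) and 8.64 ± 1.47 in the sorted cells (SD, n = 5), and reached 10.19 and 10.27 on replicates 2 and 20. Without these 2 arrays 8 members were higher and 14 lower, in place of 8 and 12. Calls over all 19938 genes rose as well, from 4020 to 5060 higher and from 3366 to 4204 lower. Calls gained in this setting, among the members or in a list of genes, are thus not particular to these genes. Values without the 2 arrays are given beside some results only, and results given without them can change as well. Itgb3, for example, was 4.65-fold higher with all arrays and 5.67-fold higher without these 2.

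**Figure D1:**
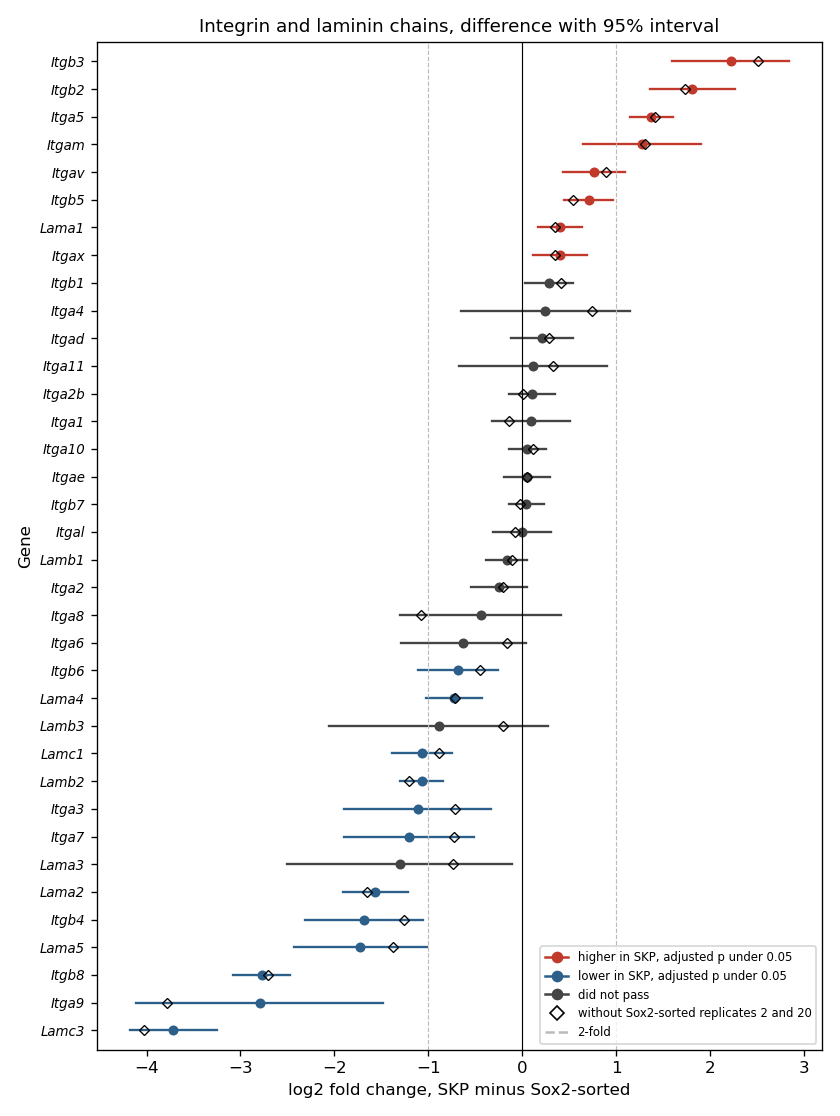
Log2 fold change, SKP minus sorted cells (x axis), for each of the 36 genes (rows), with its 95% interval as a line. Filled circles are red where the gene was higher in SKPs, blue where it was lower and grey where it did not pass the test, and open diamonds give the value without sorted replicates 2 and 20. Lamc3 lies at -3.72 and Itgb3 at 2.22, the ends of the range.

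The laminin alpha chains carry the sites that cell receptors bind. Lama2, the alpha chain of muscle, nerve and mesenchymal laminins, and Lama5, found in epithelial and vascular basement membranes, were both lower in SKPs. Lama2 was at 10.85, 11.18, 10.48 and 10.78 on the SKP arrays, against 12.50, 12.51, 12.42, 12.51 and 11.99 on the sorted arrays. The groups did not overlap, with a gap of 0.81 on the log2 scale, and Lama2 was 2.96-fold lower (95% interval 2.33 to 3.76, adjusted p = 3.25e-05). Lama5 was at 7.04, 6.65, 6.60 and 7.05 on the SKP arrays, against 8.39, 8.02, 8.35, 8.25 and 9.79 on the sorted arrays. The sorted values of Lama5 are close together except for replicate 20, which is the highest, and the gene was 3.31-fold lower (95% interval 2.02 to 5.41, adjusted p = 0.00179). Without sorted replicates 2 and 20 Lama5 was 2.59-fold lower (adjusted p = 5.64e-05). Lama4, a chain of vascular and mesenchymal laminins, was 1.65-fold lower (95% interval 1.35 to 2.03, adjusted p = 0.00175), at 10.85 ± 0.16 in SKPs (SD, n = 4) and 11.57 ± 0.24 in the sorted cells (SD, n = 5). Lama1, typical of early embryonic basement membranes, was the 1 laminin chain that was higher, by 1.32-fold (adjusted p = 0.0126). Its means of 6.57 in SKPs and 6.17 in the sorted cells lie around the level of the lowest 33.3% of genes, and the nearest values of the groups were 0.04 apart.

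Lama3 and Lamb3 encode chains of the epidermal laminin that anchors keratinocytes through the hemidesmosome, and neither passed the test. Lama3 was at 6.05, 5.96, 5.62 and 6.34 on the SKP arrays, against 6.81, 6.70, 6.56, 6.94 and 9.47 on the sorted arrays. The SKP values lay below the sorted ones, and 1 array, sorted replicate 20, stood well above the other 4. Lama3 had a difference of -1.30 on the log2 scale (95% interval -2.50 to -0.11, adjusted p = 0.0846). Without sorted replicate 20 it passed as lower, at -0.76 on the log2 scale (adjusted p = 0.00293), and without replicates 2 and 20 the value was -0.74 (adjusted p = 0.00536). Lamb3 was at 6.57, 6.37, 6.30 and 6.55 on the SKP arrays, against 7.28, 6.59, 6.64, 6.72 and 9.44 on the sorted arrays, again with replicate 20 highest, and had a difference of -0.89 on the log2 scale (95% interval -2.05 to 0.28, adjusted p = 0.218). Without replicates 2 and 20 the value was -0.20 (adjusted p = 0.0955). The keratinocyte list mean was also highest on replicate 20, at 11.54. This was not particular to keratinocytes. The means of endothelial (7.64), smooth muscle and pericyte (9.63) and melanocyte (8.89) genes were highest on replicate 20 too. All 15 keratinocyte genes were lower in SKPs, none of them under 6.31 on average in the sorted cells and 5 under it in SKPs. The part of these lists in the results for Lama3, Lamb3 and Lama5 was not tested.

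The beta and gamma chains are shared between several laminins. Lamb1, a widely used beta chain, had a difference of -0.17 on the log2 scale (95% interval -0.39 to 0.05, adjusted p = 0.218), at 12.17 ± 0.01 in SKPs (SD, n = 4) and 12.34 ± 0.18 in the sorted cells (SD, n = 5). Lamb2, the beta chain of muscle, kidney and nerve laminins, was at 9.56, 9.63, 9.43 and 9.47 on the SKP arrays, against 10.45, 10.77, 10.72, 10.69 and 10.35 on the sorted arrays. It was 2.10-fold lower (95% interval 1.79 to 2.47, adjusted p = 2.81e-05), with no overlap. Lamc1, the gamma chain of most laminins, was at 10.55, 10.72, 10.41 and 10.39 on the SKP arrays, against 12.02, 11.38, 11.48, 11.36 and 11.70 on the sorted arrays. It was 2.10-fold lower (95% interval 1.68 to 2.62, adjusted p = 0.000231), again with no overlap, and sorted replicate 2 was the highest.

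Lamc3 showed the largest difference among the 36 genes. This gamma chain is known from nerve, retina, brain and skin basement membranes. Its levels were 7.11, 7.22, 6.82 and 6.90 on the SKP arrays, against 10.30, 11.17, 10.95, 11.01 and 10.23 on the sorted arrays. The highest SKP array was 3.01 below the nearest sorted array, and on sorted replicates 2 and 20 the gene was lower than on the other 3. Lamc3 was 13.1-fold lower (95% interval 9.54 to 18.1, adjusted p = 7.83e-07), or 16.3-fold lower without these 2 arrays. The dermal papilla list mean was likewise lower on replicates 2 and 20. Schwann cell markers, genes of the glia of peripheral nerve, had a mean over 7 genes of 7.07 to 7.40 for SKPs, and for the sorted cells 10.03 (replicate 2), 9.50 (replicate 20) and 9.21 to 9.58 (the other 3), and all 7 were lower in SKPs. The mean of 8 melanocyte genes was 6.93 to 7.14 for SKPs, and for the sorted cells 8.38 (replicate 2), 8.89 (replicate 20) and 8.18 to 8.22 (the other 3), with 6 lower and 1 higher. The part of these lists in the results for Lama2, Lamb2 and Lamc3 was not tested.

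**Figure D2:**
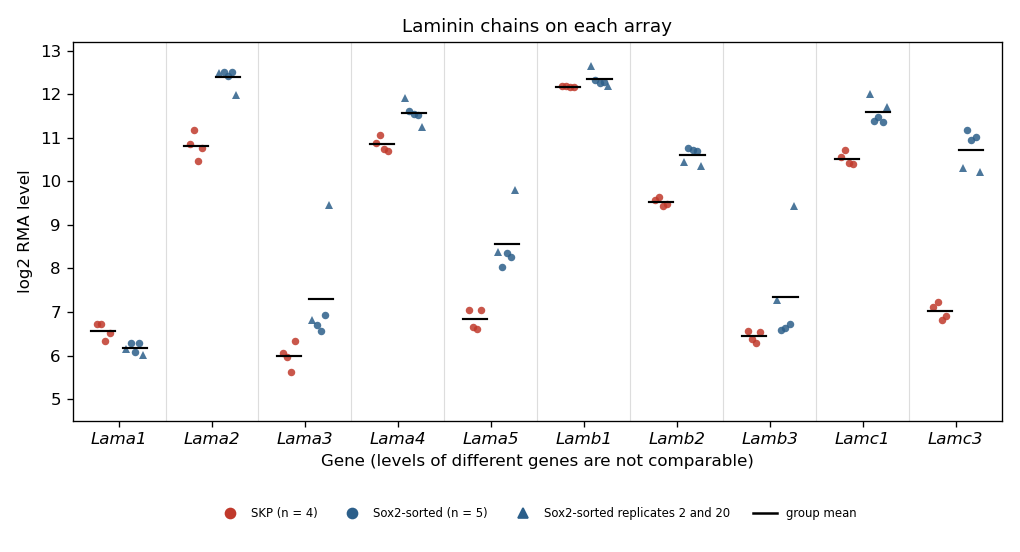
Log2 level (y axis) of the 10 laminin chains (x axis) on each array, SKPs in red to the left of the sorted cells in blue, with group means as black bars and sorted replicates 2 and 20 as triangles. In 9 genes every SKP point lies below every sorted point, by only 0.008 in Lamb1 and 0.025 in Lamb3, and in Lama1 above. In Lama3, Lama5 and Lamb3 the top triangle is replicate 20, at 9.47, 9.79 and 9.44.

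The bases upstream of Lama2 and Lamb2 are shown because both chains were lower and can assemble into 1 laminin. They are the 250 bases before the annotated gene start in RefSeq (GRCm38.p6), which held a window for 23 of the 36 members. Lama2 lies at chr10:27616943-27617192, minus strand, and Lamb2 at chr9:108479612-108479861, plus strand. Capitals mark each CG dinucleotide, the target of DNA methylation in mammals.
Lama2: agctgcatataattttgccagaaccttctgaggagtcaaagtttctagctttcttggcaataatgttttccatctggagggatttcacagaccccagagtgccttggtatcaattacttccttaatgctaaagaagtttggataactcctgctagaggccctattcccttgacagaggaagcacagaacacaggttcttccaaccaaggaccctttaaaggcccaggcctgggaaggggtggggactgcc
Lamb2: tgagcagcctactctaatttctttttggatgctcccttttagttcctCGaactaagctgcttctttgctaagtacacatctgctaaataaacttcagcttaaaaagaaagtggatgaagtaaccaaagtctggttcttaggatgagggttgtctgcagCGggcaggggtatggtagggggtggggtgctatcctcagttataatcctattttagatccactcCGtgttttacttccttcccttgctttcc
The Lama2 window holds 0 CG dinucleotides and the Lamb2 window 3, beside a median of 6 over 32536 such windows, of which 92.2% hold at least 1. Neither window has a match to the GC box (GGGCGG), the AP-1 element (TGANTCA) or the TATA box (TATAAA) on either strand, which 33.0%, 6.7% and 12.3% of all windows hold. A match or its lack describes these letters only.

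Chains of the laminin-binding integrins were lower in SKPs or did not pass. Itga3, Itga6 and Itga7 pair with Itgb1, and Itga6 also with Itgb4, the chain that anchors hemidesmosomes through its long cytoplasmic tail. Itgb4 was at 7.19, 7.06, 6.88 and 7.33 on the SKP arrays, against 9.12, 8.39, 8.47, 8.28 and 9.74 on the sorted arrays. The groups did not overlap, replicates 2 and 20 were the highest of the sorted arrays, and Itgb4 was 3.21-fold lower (95% interval 2.08 to 4.96, adjusted p = 0.000967). Itga3, an epithelial laminin receptor chain, was at 6.72, 6.37, 6.00 and 6.58 on the SKP arrays, against 7.38, 7.06, 7.11, 7.24 and 8.88 on the sorted arrays. It was 2.17-fold lower (95% interval 1.26 to 3.72, adjusted p = 0.0297), and the call was lost without SKP replicate 4, 5 or 6 (adjusted p = 0.0668, 0.0855 and 0.0559). Itga7, best known from skeletal and smooth muscle, was at 7.23, 7.07, 6.76 and 6.81 on the SKP arrays, against 8.61, 7.67, 7.88, 7.54 and 9.14 on the sorted arrays. It was 2.30-fold lower (95% interval 1.43 to 3.72, adjusted p = 0.0114), with the 2 highest values on sorted replicates 2 and 20.

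Itga6 was at 9.98, 10.15, 10.46 and 10.28 on the SKP arrays, against 11.58, 10.34, 10.63, 10.17 and 11.51 on the sorted arrays. The groups overlapped, sorted replicates 2 and 20 being higher than every SKP array and replicates 16 and 18 lying within the SKP range, and the gene had a difference of -0.63 on the log2 scale (95% interval -1.29 to 0.04, adjusted p = 0.129). Without replicates 2 and 20 its log2 fold change was -0.16 (adjusted p = 0.402). Marker lists of other cell types also differed between arrays. The keratinocyte mean is given above. The mean of 11 endothelial genes was 6.43 to 6.72 for SKPs, and for the sorted cells 7.13 (replicate 2), 7.64 (replicate 20) and 6.39 to 6.50 (the other 3). Of these 11 genes 2 were lower and 0 higher in SKPs, 18.2% called beside 37.0% over all genes. Without replicates 2 and 20 the endothelial counts were 2 lower and 4 higher. The mean of 10 smooth muscle and pericyte genes was 6.99 to 7.11 for SKPs, and for the sorted cells 9.11 (replicate 2), 9.63 (replicate 20) and 8.84 to 9.25 (the other 3), and 7 of them were lower and 0 higher. Skeletal muscle genes went the other way by count, with 7 of 9 higher in SKPs, beside 20.2% of all genes, and 1, Des, lower. Their list means overlapped, at 6.87 to 7.34 for SKPs and 6.615 to 6.97 for the sorted cells. In the sorted cells 4 of the 9 genes had a mean under 6.31. Des is also on the smooth muscle list. Without replicates 2 and 20 the skeletal muscle counts were 6 higher and 1 lower. Their part in the results for Itga3, Itga6, Itga7 and Itgb4 was not tested. Without replicates 2 and 20 Itgb4, Itga3 and Itga7 were lower by 2.40-fold, 1.65-fold and 1.66-fold, and 15 of 15 keratinocyte genes and 8 of 10 smooth muscle and pericyte genes were lower as well.

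Among chains that bind the RGD motif, Itga5, Itgav, Itgb3 and Itgb5 were higher in SKPs and Itgb8 and Itgb6 lower. Itga5, which with Itgb1 forms the main fibronectin receptor, was at 9.93, 9.86, 10.30 and 10.09 on the SKP arrays, against 8.81, 8.71, 8.58, 8.61 and 8.66 on the sorted arrays. The sorted arrays were within a narrow range and the lowest SKP array was 1.05 above the highest of them. Itga5 was 2.59-fold higher (95% interval 2.22 to 3.03, adjusted p = 4.75e-06). Itgav, the alpha chain that pairs with Itgb1, Itgb3, Itgb5, Itgb6 and Itgb8, was at 11.80, 12.00, 11.54 and 11.66 on the SKP arrays, against 11.44, 10.88, 10.94, 10.74 and 10.92 on the sorted arrays. It was 1.70-fold higher (95% interval 1.35 to 2.13, adjusted p = 0.00234), with sorted replicate 2 0.10 below the lowest SKP array.

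The beta partners of Itgav differed in direction. Itgb3, of the vitronectin and osteopontin receptor, was at 10.53, 9.99, 11.04 and 10.86 on the SKP arrays, against 9.09, 8.24, 8.34, 7.72 and 8.55 on the sorted arrays. The lowest SKP array was 0.90 above the highest sorted array, and Itgb3 was 4.65-fold higher (95% interval 3.02 to 7.15, adjusted p = 0.000157). Itgb5, another vitronectin receptor chain, was 1.63-fold higher (95% interval 1.36 to 1.95, adjusted p = 0.000942), at 11.78 ± 0.03 in SKPs (SD, n = 4) and 11.07 ± 0.23 in the sorted cells (SD, n = 5).

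Itgb8, which with Itgav binds latent TGF-beta and takes part in its activation, was at 6.89, 7.15, 6.89 and 6.88 on the SKP arrays, against 10.04, 9.82, 9.83, 9.34 and 9.60 on the sorted arrays. The gap between the groups was 2.19, and sorted replicates 2 and 20 did not stand apart from the other 3. Itgb8 was 6.85-fold lower (95% interval 5.53 to 8.47, adjusted p = 3.81e-07). Itgb6, a chain of epithelia that also binds latent TGF-beta, was 1.61-fold lower (95% interval 1.20 to 2.16, adjusted p = 0.017). Its values were 5.88, 5.60, 6.00 and 5.73 on the SKP arrays, against 6.55, 6.39, 6.25, 6.11 and 7.14 on the sorted arrays, with the highest on sorted replicate 20, and the call was lost without SKP replicate 4 (adjusted p = 0.0527).

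Itgb1, the partner of most alpha chains, was at 12.32, 12.30, 12.55 and 12.42 on the SKP arrays, against 12.45, 11.97, 12.05, 11.96 and 12.16 on the sorted arrays. The groups overlapped at sorted replicate 2, and the gene had a difference of 0.28 on the log2 scale (95% interval 0.03 to 0.54, adjusted p = 0.0776). It passed, as higher in SKPs, without sorted replicate 2 (log2 fold change 0.37, adjusted p = 0.00965) and without replicates 2 and 20 (0.41, adjusted p = 0.00289). Itga8, a receptor chain for nephronectin and other RGD ligands of mesenchyme, was at 10.74, 10.50, 10.68 and 10.66 on the SKP arrays, against 10.30, 11.67, 11.76, 11.74 and 9.96 on the sorted arrays. Sorted replicates 2 and 20 lay below the SKP arrays and the other 3 above, and Itga8 had a difference of -0.44 on the log2 scale (95% interval -1.30 to 0.41, adjusted p = 0.406). Without replicates 2 and 20 it was 2.12-fold lower (adjusted p = 6.98e-06).

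**Figure D3:**
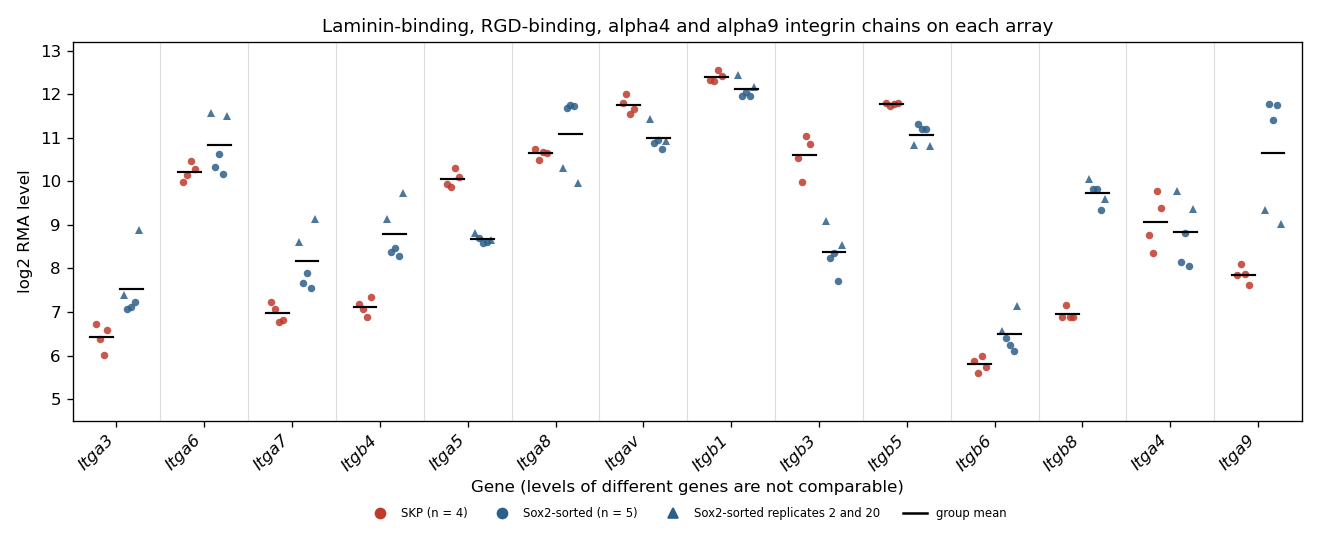
Log2 level (y axis) of 14 integrin chains (x axis) on each array, SKPs in red to the left of the sorted cells in blue, with group means as black bars and sorted replicates 2 and 20 as triangles. Itga5, Itgav, Itgb3 and Itgb5 have every SKP point above every sorted point, and Itgb8 has a gap of 2.19 the other way. In Itga8, Itga9 and Itgb5 the triangles lie below the other sorted points. They lie above them in Itga3, Itga4, Itga6, Itga7, Itgb1, Itgb3, Itgb4 and Itgb6.

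Windows upstream of Itga5 and Itgb8 are shown as chains of RGD receptors that differed in opposite directions. The Itga5 window lies at chr15:103366792-103367041, minus strand, and the Itgb8 window at chr12:119238277-119238526, minus strand (RefSeq, GRCm38.p6). Capitals mark CG dinucleotides as before.
Itga5: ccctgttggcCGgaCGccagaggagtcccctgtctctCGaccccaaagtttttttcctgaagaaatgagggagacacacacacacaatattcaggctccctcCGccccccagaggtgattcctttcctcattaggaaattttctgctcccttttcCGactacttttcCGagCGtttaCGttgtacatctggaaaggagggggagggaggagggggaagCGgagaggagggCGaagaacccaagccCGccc
Itgb8: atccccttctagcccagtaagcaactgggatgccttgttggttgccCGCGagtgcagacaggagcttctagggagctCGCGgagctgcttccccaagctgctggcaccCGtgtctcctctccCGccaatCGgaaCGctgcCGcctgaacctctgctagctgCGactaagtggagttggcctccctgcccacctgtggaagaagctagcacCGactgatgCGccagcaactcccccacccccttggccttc
Both hold more CG dinucleotides than the median window, 11 for Itga5 and 12 for Itgb8. The Itga5 window has 2 matches to the GC box and the Itgb8 window has 0. Neither has a match to the AP-1 element or the TATA box. Of the 23 members with a window, 8 hold a GC box, 1 an AP-1 element and 0 a TATA box.

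Itga9, a receptor chain for tenascin C, EMILIN1 and VCAM1 that pairs with Itgb1, differed strongly and had the largest SD of the 36 genes among the sorted arrays. It was at 7.86, 8.09, 7.87 and 7.61 on the SKP arrays, against 9.34, 11.77, 11.41, 11.74 and 9.01 on the sorted arrays. The SKP arrays were below every sorted array, and sorted replicates 2 and 20 were more than 2 below the other 3. Itga9 was 6.95-fold lower (95% interval 2.79 to 17.3, adjusted p = 0.0039), and without these arrays 13.8-fold lower (adjusted p = 1.37e-07). The dermal papilla list mean was lower on the same arrays, and its part in the result was not tested. Itga4, which binds fibronectin and VCAM1, was at 8.76, 8.35, 9.78 and 9.39 on the SKP arrays, against 9.77, 8.14, 8.81, 8.05 and 9.36 on the sorted arrays. Both groups were spread over more than 1 on the log2 scale and overlapped, and Itga4 had a difference of 0.24 on the log2 scale (95% interval -0.65 to 1.14, adjusted p = 0.674).

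None of the 4 collagen-binding alpha chains passed the test. Their log2 fold changes were -0.25 for Itga2, 0.05 for Itga10, 0.09 for Itga1 and 0.11 for Itga11, with adjusted p from 0.186 (Itga2) to 0.839 (Itga11). At an unadjusted p under 0.05 the count was also 0. The 95% interval of the difference lay within 2-fold for all 4, from -0.55 to 0.05 for Itga2, -0.15 to 0.25 for Itga10, -0.33 to 0.51 for Itga1 and -0.68 to 0.90 for Itga11. Itga11, the fibrillar collagen receptor chain of fibroblasts, was at 8.41, 8.60, 7.55 and 8.07 on the SKP arrays, against 9.23, 7.91, 8.11, 7.49 and 7.52 on the sorted arrays, with replicate 2 the highest. Itga2b, the platelet alpha chain, had a difference of 0.11 on the log2 scale (95% interval -0.14 to 0.35, adjusted p = 0.492).

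The leukocyte chains Itgb2, Itgam and Itgax were higher in SKPs. Itgb2 is the shared beta chain of leukocyte integrins, Itgam its partner on macrophages and neutrophils, and Itgax that on dendritic cells and some macrophages. Itgb2 was at 7.42, 6.88, 8.08 and 7.64 on the SKP arrays, against 5.68, 5.91, 5.66, 5.74 and 5.49 on the sorted arrays. It was 3.51-fold higher (95% interval 2.56 to 4.80, adjusted p = 7.69e-05), with no overlap. Itgam was at 6.56, 6.04, 7.76 and 6.67 on the SKP arrays, against 5.62, 5.60, 5.29, 5.48 and 5.46 on the sorted arrays, and was 2.41-fold higher (95% interval 1.57 to 3.72, adjusted p = 0.00501). Itgax was at 5.92, 5.70, 6.05 and 6.38 on the SKP arrays, against 5.48, 5.58, 5.64, 5.76 and 5.59 on the sorted arrays. It was 1.32-fold higher (95% interval 1.08 to 1.61, adjusted p = 0.0328), its groups overlapped at SKP replicate 4, and the call was lost on leaving out any of 6 single arrays (adjusted p up to 0.0762) and without sorted replicates 2 and 20 (adjusted p = 0.0860).

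Markers of myeloid cells were higher on the same arrays. Of 15 myeloid genes 13 were higher in SKPs and 0 lower, and their mean was 7.50, 6.95, 8.48 and 7.85 on the SKP arrays, against 6.00 to 6.31 on the sorted arrays. From high to low the SKP arrays stood in the order 5, 6, 3 and 4 for this mean, for Itgb2 and for Itgam. The same order was found in Itga1, Itga4, Itga5, Itgb1 and Itgb3, which are not leukocyte-specific chains, and not in Itgax, which was highest on replicate 6. Of the 15 genes, 9 had a sorted mean under 6.31 and 3 an SKP mean under it. Ptprc, the defining leukocyte surface gene, averaged 6.73 ± 0.50 in SKPs (SD, n = 4) and 5.65 ± 0.17 in the sorted cells (SD, n = 5), and was 2.10-fold higher (adjusted p = 0.00239). The part of these markers in the results for Itgb2, Itgam and Itgax was not tested. The other leukocyte chains did not pass: the log2 differences were -0.0008 for Itgal, 0.05 for Itgae, 0.21 for Itgad and 0.04 for Itgb7, with adjusted p of 0.997, 0.759, 0.298 and 0.733. The mean of 9 lymphoid genes was 5.44 to 5.68 on the SKP arrays and 5.48 to 5.55 on the sorted arrays. Of these genes 1 was higher and 1 lower, 22.2% called beside 37.0% over all genes.

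**Figure D4:**
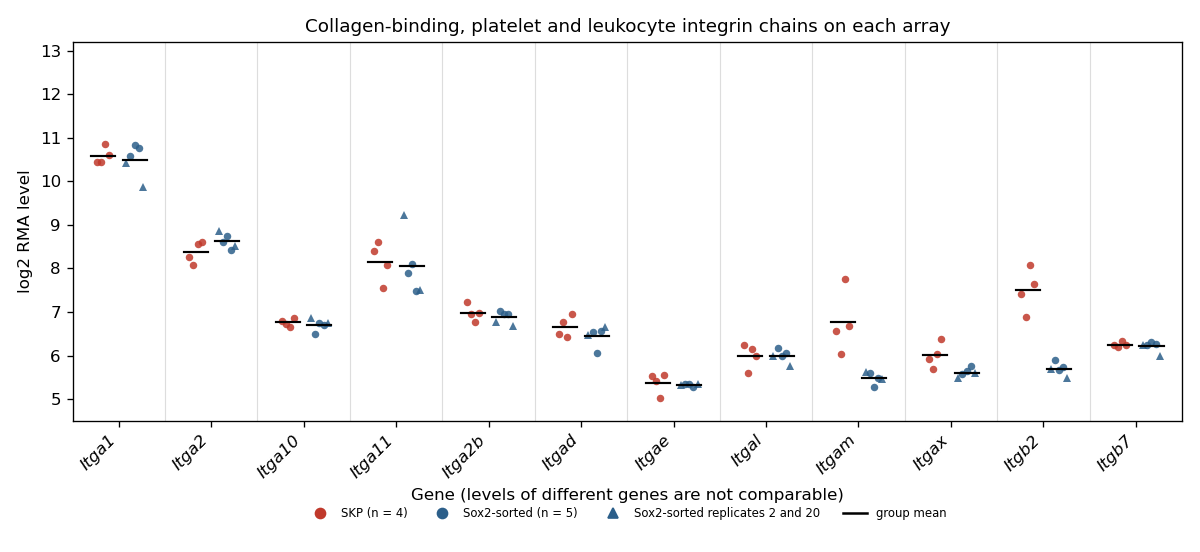
Log2 level (y axis) of the collagen-binding, platelet and leukocyte integrin chains (x axis) on each array, SKPs in red to the left of the sorted cells in blue, with group means as black bars and sorted replicates 2 and 20 as triangles. Itgb2 and Itgam have every SKP point above every sorted point, with SKP replicate 5 the highest at 8.08 and 7.76, and the other 10 genes overlap.

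**Figure D5:**
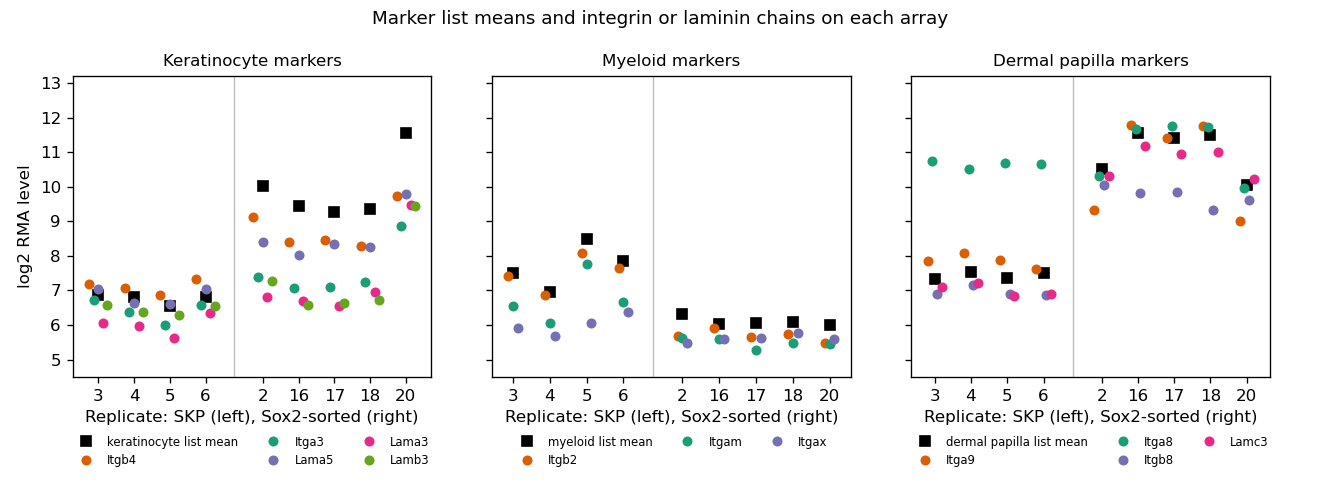
Log2 level (y axis) on each array (x axis, SKP replicates left of the line and sorted replicates right of it) of marker list means, as black squares, and of single integrin or laminin genes, as coloured circles. In the left panel the keratinocyte mean and all 5 genes are highest on sorted replicate 20, in the middle panel the myeloid mean, Itgb2 and Itgam are highest on SKP replicate 5, and in the right panel the dermal papilla mean, Itga8, Itga9 and Lamc3 are lower on sorted replicates 2 and 20 than on the other 3, which does not hold for Itgb8.

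Genes that work with these chains were examined as 4 lists, beside a median log2 fold change of 0.07 over all genes. Their counts stand beside 16.9% of all genes lower and 20.2% higher. The list counts without sorted replicates 2 and 20 stand beside a rise over all genes, from 4020 to 5060 higher and from 3366 to 4204 lower. In the list of other basement membrane components, 9 of 18 genes were lower in SKPs and 2 higher, and the median was -0.51. Frem2 and Fras1, whose products form a complex at the junction of epithelium and dermis, were 11.4-fold and 5.94-fold lower (adjusted p = 6.4e-06 and 9.89e-06). Col18a1, the collagen that releases endostatin, was 2.75-fold higher (adjusted p = 0.00272), and Col7a1, the collagen of anchoring fibrils, 1.92-fold higher (adjusted p = 0.00197). The laminin linkers Nid1 and Nid2 were lower, by 1.51-fold and 2.83-fold, as were the network collagens Col4a1 and Col4a2, by 1.64-fold and 1.89-fold. Col4a3, Col4a4, Col4a5 and Col4a6 did not pass, with log2 differences of 0.05, 0.05, -0.33 and -0.43 (adjusted p = 0.735, 0.638, 0.068 and 0.077). The Nid and Col4 genes were picked after their values were seen. Without sorted replicates 2 and 20 the counts of the list were 9 lower and 3 higher.

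In the list of other laminin receptors and hemidesmosome proteins, 6 of 15 genes were lower and 2 higher, and the median was -0.02. Without sorted replicates 2 and 20 the counts were 7 lower and 5 higher. Dmd, which encodes dystrophin, was 10.9-fold lower (adjusted p = 6.23e-05), or 16.4-fold without these arrays. Bcam, a receptor for laminins that hold Lama5, was 3.74-fold lower (adjusted p = 0.00981), with its highest level, 11.07, on sorted replicate 20. Without sorted replicates 2 and 20 Bcam was 2.53-fold lower. Sdc2 was 1.89-fold higher (adjusted p = 0.00138) and Sdc1 1.24-fold higher (adjusted p = 0.0251), both syndecans, heparan sulfate proteoglycans of the cell surface. Another syndecan of the list, Sdc4, was 1.51-fold lower (adjusted p = 0.00896). Dag1 encodes dystroglycan, which binds laminins that contain Lama2, and was picked after its values were seen. It averaged 9.27 ± 0.07 in SKPs (SD, n = 4) and 10.59 ± 0.18 in the sorted cells (SD, n = 5), and was 2.49-fold lower (adjusted p = 6.38e-06).

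Among genes for other integrin ligands the balance ran the other way, with 7 of 14 higher and 3 lower, and a median of 0.76. The list held 18 genes, and those not measured include Spp1, for osteopontin. Without sorted replicates 2 and 20 9 of them were higher and 3 lower, and the median was 0.63. Tnc, which encodes tenascin C, a ligand of Itga9 and Itgav receptors, was 9.28-fold higher (adjusted p = 0.00117), or 17.1-fold without sorted replicates 2 and 20. Edil3, an RGD ligand of Itgav receptors, was 8.76-fold higher (adjusted p = 2.13e-08). Ltbp1, which holds latent TGF-beta in the matrix, fell by 3.17 on the log2 scale (adjusted p = 5.88e-05), and Npnt, for the Itga8 ligand nephronectin, 3.74-fold lower (adjusted p = 7.69e-05). Fn1, Vcam1 and Vtn were picked after their values were seen. They encode ligands of Itga5 receptors, of Itga4 and Itga9 receptors, and of Itgb3 and Itgb5 receptors. Fn1, fibronectin, was 3.23-fold higher (adjusted p = 0.0144), or 5.44-fold without sorted replicates 2 and 20, and Vcam1 was 3.74-fold higher (adjusted p = 0.000106). Vtn, vitronectin, did not pass, at -0.27 on the log2 scale (adjusted p = 0.24).

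In the list of integrin activators and adhesion complex proteins, 11 of 25 genes were lower and 4 higher, and the median was -0.13. Itgbl1, a secreted protein related to the beta chains, and Tns3, a tensin that links integrin tails to actin, were 3.86-fold and 3.63-fold lower (adjusted p = 0.00538 and 0.000607). Apbb1ip, an activator of integrins on blood cells, was 2.67-fold higher (adjusted p = 0.00025), and Itgb1bp1, which binds the tail of the Itgb1 chain, 1.94-fold higher (adjusted p = 5.35e-05). Without sorted replicates 2 and 20 the counts were 11 lower and 7 higher.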

How the data were processed

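RNA of 4 SKP and 5 sorted preparations was measured on 9 arrays, 1 per preparation. The deposited values are on the log2 scale, 1 for each of 35556 probe sets and array. The tools RMA, Affymetrix Expression Console and limma are named by the submitters' processing notes, with no version or setting, and a genome build is not given in the sources used here. Array medians ran from 7.15 to 7.30. Without detection calls, dim values cannot be set against background. Precision is limited by the number of arrays.

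The 21789 probe sets with 1 gene symbol were used, keeping for each gene the 1 with the highest mean level. Itgb2l, whose name continues past the number, was left out of the members. SKP minus sorted cells was tested with limma 3.58.1 in R 4.3.3 (lmFit and eBayes, no trend, not robust, two-sided), fitted on all 19938 genes, with Benjamini-Hochberg adjustment over all of them. A gene was called at an adjusted p under 0.05, and "higher", "lower" and "passed" refer to calls. Folds are 2 to the power of the log2 difference and may understate changes of dim genes. The calculation was tested on simulated data. The alternatives were quantile normalization, median centring, removal of the lowest 33.3% of genes, a mean over probe sets, weighted arrays, a robust eBayes with trend, a 2-fold limit, leaving out each array, and leaving out sorted arrays 2 and 20. Figures were drawn with matplotlib 3.10.9.

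The members, lists and alternatives were chosen with earlier results of these data known. All members are named. Values on every array are given for members called with at least a 2-fold difference, those called although their groups overlap, and Itgb1 and Itgav. Of each list of related genes the 2 called members with the largest change in each direction are named. Other genes, and members shown on every array beyond this rule, were picked after their values were seen.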

Additional observations from a re-analysis of the deposited data

Results flagged for a closer look

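In 8 of the 72 sets of values (36 genes in 2 groups) 1 array lay far from the others of its group, by Dixon's test at the 95% level, where chance alone marks about 1 in 20. In 6 of them the array was sorted replicate 20. It was the highest sorted array for Lama3 (9.47, others 6.56 to 6.94), Lamb3 (9.44, others 6.59 to 7.28), Lama5 (9.79, others 8.02 to 8.39) and Itga3 (8.88, others 7.06 to 7.38). It was the lowest for Lama2 (11.99, others 12.42 to 12.51) and Itgb7 (5.99, others 6.25 to 6.30). The remaining sets were Itgb8, highest on SKP replicate 4 (7.15, others 6.88 to 6.89), and Itgae, lowest on sorted replicate 18 (5.28, others 5.33 to 5.35).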

How the results depend on the processing

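Of the 36 genes, 20 kept both direction and side of the threshold under all 17 alternatives in which they were tested. The count of members higher in SKPs was 8 and fell to 4 with a limit of 2-fold, and that of members lower was 12 and became 10. On leaving out single arrays the counts were 7 to 8 higher and 10 to 13 lower. Scaling moved the median of all genes by 0.07 at most (median centring). On quantile normalization Lamb1 passed (-0.28, adjusted p = 0.0462), and on median centring Itgb1 did (0.35, adjusted p = 0.0459). With array weights Itga8 (-0.96, adjusted p = 0.00155), Itgb1 (0.37, adjusted p = 0.00150) and Lama3 (-0.67, adjusted p = 0.0368) passed. Genes that changed sign were below the threshold for a call as reported. They were Itga1 (-0.125 with array weights, -0.138 without sorted arrays 2 and 20, -0.0645 to 0.1735 on leaving out single arrays), Itga11 (-0.0395 to 0.4037 on leaving out single arrays) and Itgae (-0.0158 on quantile normalization, -0.0089 to 0.1696 on leaving out single arrays). The others were Itgal (0.0693 on median centring, -0.0836 to 0.1319 on leaving out single arrays) and Itgb7 (-0.0208 with array weights, -0.0202 without sorted arrays 2 and 20, -0.0138 to 0.0638 on leaving out single arrays). The cause was not tested. Removal of dim genes left out 6 members, 3 of them called, because their means lay under the limit of 6.31. No paired analysis was possible because the groups share no replicate number. No detection value was used, so dim members may be limited by signal over background.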

Other observations

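Itgam is also listed on 3 probe sets together with Rpl35, a ribosomal protein gene, and these were not used as members because they name 2 genes. Their levels ran from 10.84 to 11.16 on the SKP arrays and from 10.60 to 11.66 on the sorted arrays, with overlap in each of the 3 and sorted replicate 20 the highest array. The probe set named for Itgam alone ran from 6.04 to 7.76 on the SKP arrays and from 5.29 to 5.62 on the sorted arrays. Itgad has a second probe set of its own, at 5.57 to 6.05 on the SKP arrays and 5.31 to 5.93 on the sorted arrays, while the one used ran from 6.43 to 6.96 on the SKP arrays and from 6.05 to 6.65 on the sorted arrays. In neither of them did the groups separate.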
